A study of Mus musculus with 9 samples.

Results

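The response shared by Ebf1-deficient striata was described here from all 6 embryos labelled with an Ebf1 mutant genotype, set as 1 group against the 3 embryos labelled Control. The 9 embryos make up the whole series, and the members were chosen by the genotype label alone. Of the 6 mutants, 3 were labelled Islet1Cre;Ebf1fl/- and 3 Dlx5/6::Cre;Ebf1fl/-. Every embryo was labelled as C57BL/6 and was taken at E17.5, although the study's methods state that the Islet1Cre line was kept on B6D2F1/J, so strain and Cre line cannot be told apart in the Islet1Cre;Ebf1fl/- embryos. Striatal RNA from each gave 1 library. Both mutant genotypes combine a floxed allele of Ebf1, inherited from an Ebf1fl/fl mother, with a germline null allele. The labels do not give the alleles that each control carried, and the methods call the control embryos of these crosses heterozygous without naming the allele. Islet1Cre recombines in the direct pathway neurons and in cholinergic interneurons of the striatum, whereas Dlx5/6::Cre recombines in striatal projection neurons of both pathways and in interneurons. The pooled group therefore joins deletions of different extent, and in both the second allele was missing in every cell.

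Ebf1 encodes a DNA-binding transcription factor of the COE family, known from the differentiation of B lymphocytes and of several neuron types. In the striatum the inhibitory spiny projection neurons (SPN) divide into direct pathway neurons (dSPN), which send axons to the substantia nigra and the entopeduncular nucleus, and indirect pathway neurons (iSPN), which project to the globus pallidus. dSPN are the SPN that hold Ebf1 in the embryo. During late gestation these neurons sort into patch-like striosomes and the surrounding matrix, extend their axons and start to form synapses, steps that use guidance receptors, adhesion molecules and transmitter receptors at the cell surface.

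Counts on genes totalled 16.5 to 41.5 M in the mutants and 31.7 to 37.4 M in the controls. A two-sided exact permutation test over 84 arrangements gave p = 0.595, where the smallest possible is 0.0238. Values below are normalized counts, which are reads per gene divided by the size factor of the library. For a gene, the 3 values of the controls are given in the order of their replicate numbers, and for the mutants the lowest, the median and the highest of the 6 values. Fold changes are on the log2 scale, mutants over controls, and adjusted p values are from edgeR. Ebf1 itself (ENSMUSG00000057098, chromosome 11, 44617317 to 45008091 of GRCm38) had 7945, 14208 and 9697 in the controls and 11774, 13538 and 15343 in the mutants. This is a log2 difference of 0.37, with a 95% interval of 0.04 to 0.71 and an adjusted p of 0.324. Whole-gene counts were thus not lower, do not show whether part of the gene was deleted, and give no check of the genotype labels, and "mutants" below means the embryos so labelled. The libraries held striatal RNA by their markers: 16 generic SPN genes summed to 138079 to 182153, and 10 genes of cortical excitatory neurons to 1242 to 7268. The library labelled Dlx5/6::Cre;Ebf1fl/- replicate 1 stood apart along the first principal component, which held 30.3% of the variance, and had the highest cortical sum. There 27 cell cycle genes summed to 63157, against 15825 to 20373 in the other 8 embryos. Embryos also differed in sex-linked RNA. Xist was at 3.27 in control 2 and at 7270 to 26175 in the others, while Ddx3y, on the Y chromosome, was at 917 in control 2, 583 in Islet1Cre;Ebf1fl/- replicate 3, 59.6 in control 3 and at most 1.42 elsewhere. Xist and Y-linked RNA were thus both present in Islet1Cre;Ebf1fl/- replicate 3 and, at a low level, in control 3. Controls 1 and 2 and the Islet1Cre mutants share the letters IE in their embryo codes, and control 3 and the Dlx5/6::Cre mutants the letter D. What these letters stand for is not given in the sources used here.

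Of 16368 genes tested with edgeR's quasi-likelihood test, 399 (2.44%) changed at a Benjamini-Hochberg adjusted p below 0.05, 213 (1.3%) lower and 186 (1.14%) higher in the mutants. Every mutant lay outside the range of the controls for 209 of the lower and 181 of the higher genes. Over all tested genes, every mutant was below every control for 667 genes (4.08%) and above for 594 (3.63%). Most changes were modest. The median fold was 1.82 among the lower and 1.69 among the higher genes, 88 and 64 of them reached a fold of 2, and 61 and 55 stayed under 1.5. The median log2 fold change over all genes was 0.01. The number of calls depended on single embryos: it was 696 without Dlx5/6::Cre;Ebf1fl/- replicate 1, 172 without control 1, 246 without control 2, 186 without control 3 and 237 without Dlx5/6::Cre;Ebf1fl/- replicate 3, with 134 of the 399 genes called whichever embryo was left out. Of the 167 called genes that are named in the text, 77 kept the call in each of these 9 fits and the others lost it in at least 1. Among the embryos with codes IE alone, 3 mutants against 2 controls, 169 genes were called. With the code letters as a covariate in the fit of all 9 embryos there were 335. The D embryos hold 1 control and were not fitted alone.

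**Figure D1:**
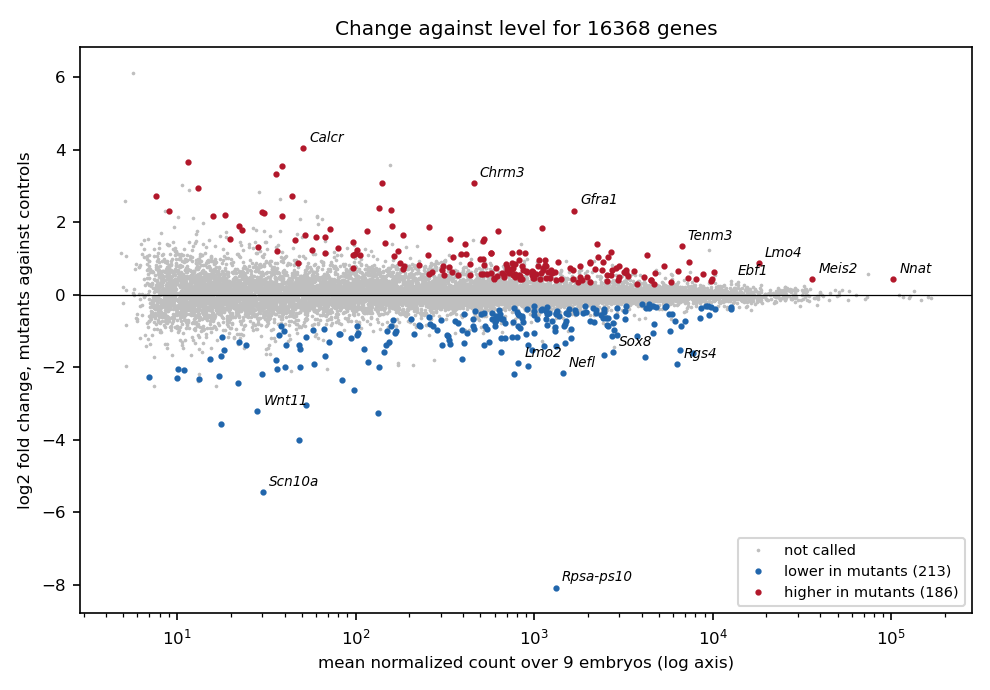
Log2 fold change of the 6 mutants over the 3 controls (vertical axis) against the mean normalized count over 9 embryos (horizontal log axis), 1 point per tested gene, with the 213 lower genes in blue and the 186 higher genes in red. Called genes lie across the whole range of levels, and large changes sit mostly at low counts; Ebf1 lies among the genes not called.

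The largest decreases affected genes of varied function. Lmo2 (chromosome 2, 103957986 to 103981878), a LIM-only cofactor of transcription complexes, had 1909, 1436 and 1394 normalized counts in the controls and 338, 409 and 630.0 in the mutants. This was a change of -1.88 (95% interval -2.26 to -1.50; adjusted p = 0.000583). Every mutant was below the lowest control, which the rule that picked these genes required. Nefl (chromosome 14, 68083863 to 68089095), the light neurofilament chain, had 3149, 2566 and 3237 in the controls and 294, 639 and 1203 in the mutants, a log2 change of -2.17 (95% interval -2.79 to -1.54; adjusted p = 0.00295). Rgs4 (chromosome 1, 169741477 to 169747642), which speeds the shut-off of Gi and Gq proteins, had 12359, 11293 and 13492 in the controls and 1423, 2892 and 6443 in the mutants, a change of -1.92 (95% interval -2.62 to -1.23; adjusted p = 0.00818). In each of these genes the highest mutant was Islet1Cre;Ebf1fl/- replicate 3. The 15 largest decreases were taken among called genes whose groups did not overlap and whose mean normalized count was at least 100. The others of these 15 were Atp6ap1l (-3.26), Col6a1 (-2.18), Egfem1 (-2.01), Col25a1 (-1.98), Fam84b (-1.78), Syt4 (-1.73), Zfp521 (-1.66), Plxnd1 (-1.62), the non-coding Gm14133 (-1.58), Cxcr4 (-1.58), Sox8 (-1.58) and Rph3a (-1.54), each a log2 fold change. Of these 15 genes, Gm14133 kept its call in only 2 of the 9 fits that left out 1 embryo, and the other 14 in at least 7. Exons of Nefl share 32.8% of their bases with the opposite-strand Nefm, and those of Fam84b 41.7% with 9930014A18Rik; whether the counting used strand is not given in the sources used here. The share with the opposite strand is 20.1% for Adora1 and 26.1% for Pdgfa.

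The largest increases, taken by the same limits on overlap and mean count, also affected genes of varied function. Chrm3 (chromosome 13, 9875486 to 10360847), the Gq-coupled M3 muscarinic receptor, had 72.4, 89.0 and 69.3 normalized counts in the controls and 501, 637 and 794 in the mutants, a log2 change of 3.07 (95% interval 2.67 to 3.46; adjusted p = 2.56e-05), and the smallest p of all genes. Gfra1 (chromosome 19, 58235604 to 58455909), the GDNF co-receptor, had 337, 499.8 and 544 in the controls and 1559, 2397 and 2866 in the mutants, a change of 2.32 (95% interval 1.81 to 2.82; adjusted p = 0.000887). Adcy8 (chromosome 15, 64697084 to 64922296), a calcium-stimulated adenylyl cyclase, had 36.2, 53.1 and 39.4 in the controls and 127, 230.1 and 288 in the mutants, a change of 2.33 (95% interval 1.75 to 2.91; adjusted p = 0.00116). The groups of these 3 genes did not overlap, which the limit on overlap had fixed in advance. The list also held Spp1 (3.09), which encodes osteopontin, the vasopressin receptor Avpr1a (18.1, 53.9 and 31.7 in the controls against 109, 207 and 234), the kinase Stk32a (1.89), Lonrf3 (1.85), the sortilin family receptor Sorcs3 (1.83), the immunoglobulin adhesion molecule Sdk1 (1.76), the potassium channel Kcnk13 (1.76), Lypd6b (1.63), Nrp2 (1.53), the nucleosome-binding Hmgn5 (1.52), Cdh20 (1.47) and ENSMUSG00000097348 (1.43). Spp1 varied most among the mutants, from 48.2 to 486, and lost its call in 5 of the 9 fits that left out 1 embryo, as did Hmgn5.

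**Figure D2:**
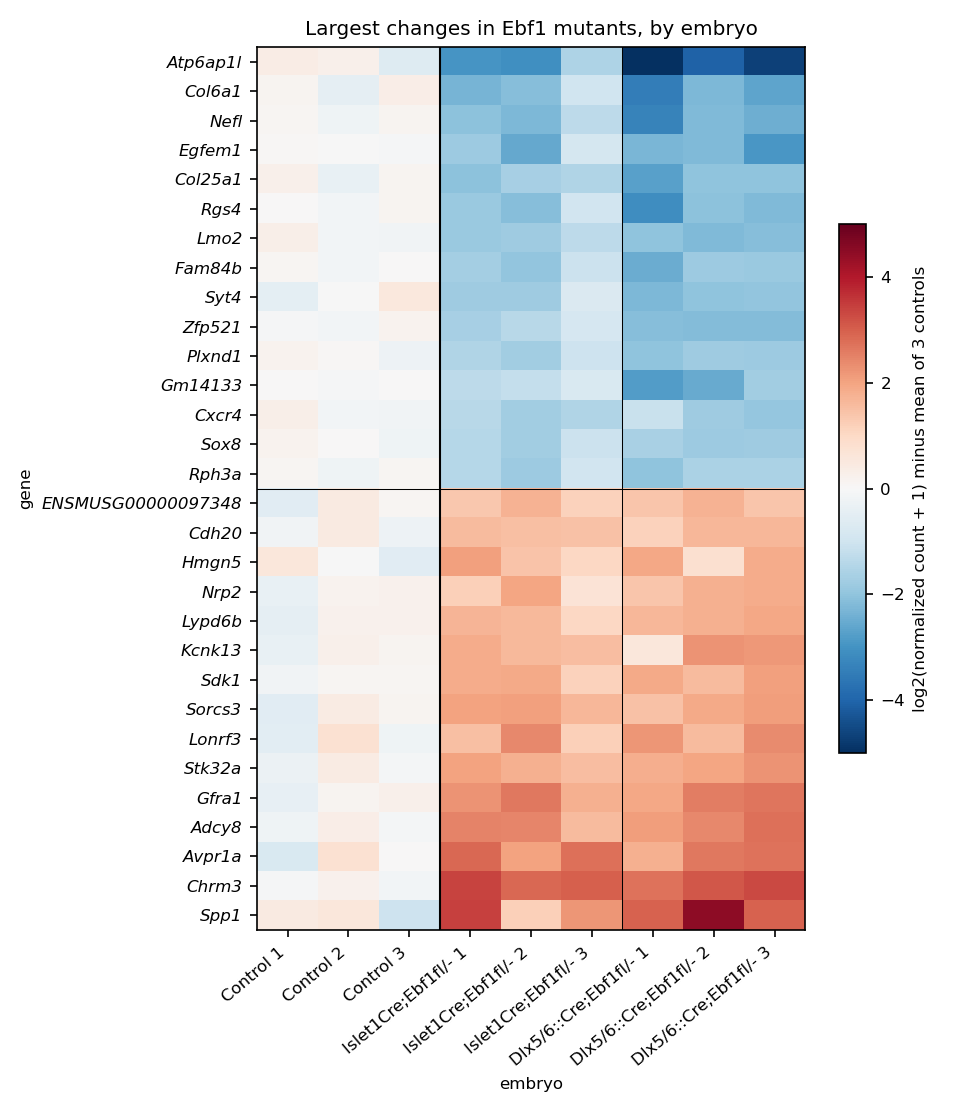
The 15 largest decreases and 15 largest increases among called genes whose groups do not overlap and whose mean normalized count is at least 100, by embryo. Colour gives log2(normalized count + 1) minus the mean of the 3 controls; within the mutant columns, Islet1Cre;Ebf1fl/- replicate 3 is the palest for most lower genes and Dlx5/6::Cre;Ebf1fl/- replicate 1 the darkest for several.

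The mutants were not uniform. Islet1Cre;Ebf1fl/- replicate 3 was the mutant nearest to the controls in 122 of the 213 lower genes (57.3%) and in 71 of the 186 higher genes (38.2%). Dlx5/6::Cre;Ebf1fl/- replicate 1 was the farthest in 105 of the lower genes (49.3%), but the nearest in 62 of the higher ones (33.3%). Islet1Cre;Ebf1fl/- replicate 3 is also the shallowest library and the mutant with Y-linked counts, and Dlx5/6::Cre;Ebf1fl/- replicate 1 the one with high cell cycle counts. The part of these properties in the differences was not tested. With both mutant genotypes set against the same 3 controls, the median log2 fold change of the lower genes was -0.80 in Islet1Cre;Ebf1fl/- and -0.92 in Dlx5/6::Cre;Ebf1fl/-, and that of the higher genes 0.74 and 0.77. The change was larger in Dlx5/6::Cre;Ebf1fl/- for 162 of the lower and 127 of the higher genes. Between the mutant genotypes edgeR called 0 genes, and 844 genes (5.16%) had an unadjusted p below 0.05.

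Sorted by function, the calls were spread unevenly. Of the 2898 tested genes on any of the functional lists used here, 68 were lower and 67 higher (4.66%, against 2.44% of all genes). The share called was 17.2% of striatal identity genes, 16.2% of axon guidance genes, 11.6% of adhesion genes, 6.48% of receptors and peptides and 6.4% of intracellular signalling genes. It was 2.44% of transcription factors, equal to that of all genes, and 0.337% of housekeeping genes. The lists were written with earlier results of these data known, so these shares are not independent evidence. Of the identity genes called lower, 6 are dSPN genes. The study had already reported Zfp521, Mef2c, Plxnd1, Slc35d3 and Cdh8 as deregulated in these mutants. It also reported Reln as strongly lower in both mutant genotypes, and Reln was not called here in the pooled fit. The number called in a class followed the total when single embryos were left out. Axon guidance genes, for example, ranged from 3 higher without control 1 to 12 higher without Dlx5/6::Cre;Ebf1fl/- replicate 1, and receptor and peptide genes from 3 higher to 28 higher in the same fits.

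**Figure D3:**
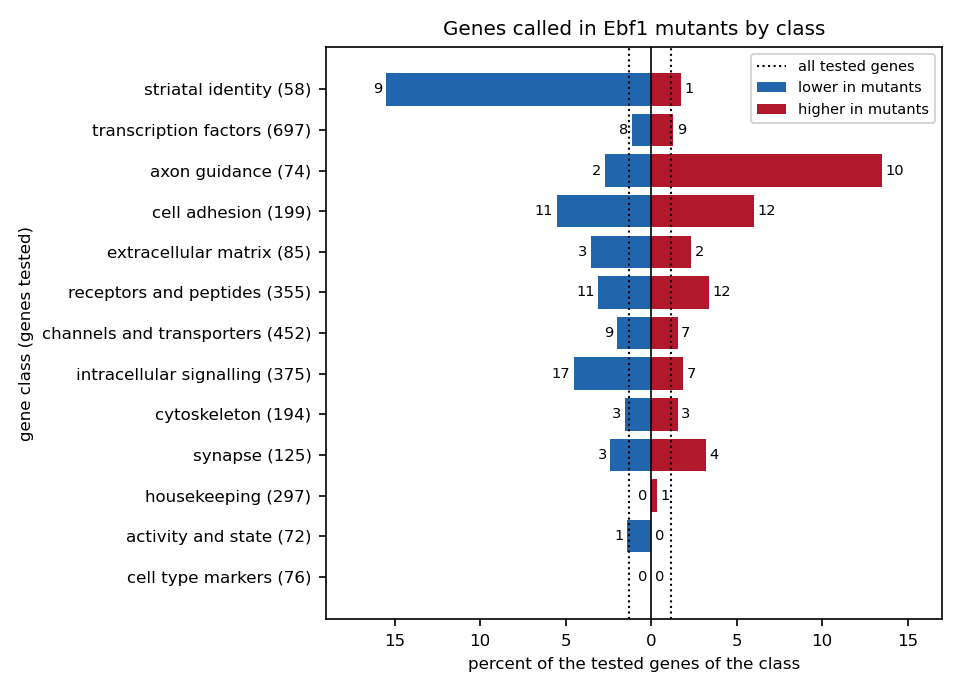
Percent of the tested genes of each class that were lower (blue, to the left) or higher (red, to the right) in the mutants, with the number of genes at the end of each bar and the number tested beside the class name. Dotted lines give the shares over all tested genes, 1.3% lower and 1.14% higher. Identity genes reach far to the left and guidance genes far to the right. The lists were written with earlier results of these data known.

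Transcription factors as a whole were called at the share of all genes, 8 lower and 9 higher of 697, but single families divided. The LIM-only proteins moved in opposite directions. Lmo4, a LIM-only cofactor abundant in forebrain, had 11122, 11094 and 12754 in the controls and 16677, 21738 and 25661 in the mutants, a log2 fold change of 0.87 (95% interval 0.60 to 1.13; adjusted p = 0.00374), while Lmo2 fell as given above. The 6 other tested members of the LIM-only and Ldb list were not called. Per kilobase of exon the 2 genes were far apart in level, at 729 in controls for Lmo2 and 3302 for Lmo4 in normalized counts per kilobase. In the mutants the levels were 199 and 6026.

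Of 59 homeobox genes tested, 5 were higher and 1 lower (10.2%; median log2 fold change 0.30). The TALE homeodomain proteins Meis1 and Meis2 were both higher, by 0.48 and 0.42 on the log2 scale. Meis2 was among the most abundant of all called genes, with 24825, 32546 and 30870.1 in the controls and 36160.1, 39304 and 42933 in the mutants. These increases were small and close to the threshold (adjusted p = 0.0443 and 0.0432), and the calls were lost in 7 and 8 of the 9 fits that left out 1 embryo. Pou3f1 was firmer. This POU factor had 1099.9, 1539 and 1307 in the controls and 2015, 2464 and 2726 in the mutants, a change of 0.88 (95% interval 0.61 to 1.16; adjusted p = 0.00404). Tshz2, a teashirt zinc finger protein, rose by 1.03 (adjusted p = 0.027), and 67.5% of its exon bases are shared with genes on the other strand. The call of Tshz2 was lost in 5 of the 9 fits that left out 1 embryo.

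The other transcription factors that fell were Sox8, of the SoxE family (5547, 5013 and 4215 against 1390.5, 1519 and 2303; log2 -1.58; adjusted p = 0.000583), Ikzf1, the Ikaros zinc finger protein of lymphocytes and SPN (6115, 3497 and 3958 against 1882, 2059.5 and 2448; log2 -1.11; adjusted p = 0.00295), the MADS-box factor Mef2c (-0.85), the zinc finger protein Zfp521, a known partner of Ebf1 (-1.66), Zfp667 (-0.41) and the Notch effector Hey1 (-0.54). Hey1 lost its call in 8 of the 9 fits that left out 1 embryo. Those that rose further included Zfp385b (1.11), Zfp608 (0.42) and Klf14. Klf14 was near the detection limit in the controls, at 0.905, 8.17 and 4.81, and at 42.6, 49.7 and 79.1 in the mutants (adjusted p = 0.00288). No call was made among 25 forkhead factors, 35 nuclear receptors, 32 factors of the Fos, Jun, Atf, Creb, Cebp and Maf families, or the 2 Ebf genes that passed the filter.

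Of 74 axon guidance genes tested, 12 were called (16.2%), 10 higher and 2 lower in the mutants, and the median log2 fold change over all 74 was 0.03. Without control 1 the calls were 3 higher and 2 lower. Eph receptors and ephrins, which signal at cell contacts and set repulsive boundaries, accounted for 5 of the 10, with none lower among 21 tested (23.8%; median log2 0.18). DESeq2's Wald test called 5 of them higher and 1 lower. With the code letters as a covariate, edgeR called 2 higher and 0 lower. Ephb6 (chromosome 6, 41605482 to 41620509), an Eph receptor without kinase activity, had 1327, 1564 and 1502 in the controls and 2560.3, 3288 and 4023 in the mutants, a log2 fold change of 1.18 (95% interval 0.92 to 1.45; adjusted p = 0.00093). The receptor Epha5 had 1991, 2070.2 and 1776 and 2829.6, 3038 and 3787, a change of 0.69 (95% interval 0.48 to 0.90; adjusted p = 0.00355). Both kept their calls without any single embryo. Epha6 (1.27), Epha8 (0.39) and the ligand Efnb3 (0.35) passed as well, and lost the call in 7, 8 and 7 of the 9 fits that left out 1 embryo.

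Semaphorin receptors changed in both directions. Plxnd1, the plexin that binds Sema3e, fell from 15827, 14741 and 11846 to 3522, 4164 and 6894 (log2 -1.62; adjusted p = 0.000963), and every mutant was below every control. Nrp1 and Nrp2, the neuropilins that bind class 3 semaphorins and VEGF, rose. Nrp1 had 540.0, 474 and 429 in the controls and 668, 904 and 1048 in the mutants (log2 0.88; 95% interval 0.56 to 1.19; adjusted p = 0.00803). Nrp2 had 175, 257 and 264 and 365, 689.8 and 909.5 (log2 1.53; 95% interval 0.94 to 2.12; adjusted p = 0.0119). Plxnc1, the receptor of Sema7a, rose by 0.59 (adjusted p = 0.0126). The other 27 of 31 tested semaphorins, plexins and neuropilins were not called.

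Among secreted cues, netrin-1 rose from 2642, 3476 and 4563 to 5239, 6314 and 7141 (Ntn1; log2 0.80; 95% interval 0.46 to 1.14; adjusted p = 0.0203) and the repellent Slit2 from 166, 155 and 129 to 217, 253 and 343 (log2 0.81; 95% interval 0.44 to 1.19; adjusted p = 0.0305). Draxin, a secreted protein that binds Dcc and netrin, fell by a smaller amount, from 5489, 4925 and 5069.5 to 3769, 3971 and 4446 (log2 -0.36; 95% interval -0.50 to -0.22; adjusted p = 0.0119). The calls of Ntn1 and Slit2 were lost in 4 and 5 of the 9 fits that left out 1 embryo.

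**Figure D4:**
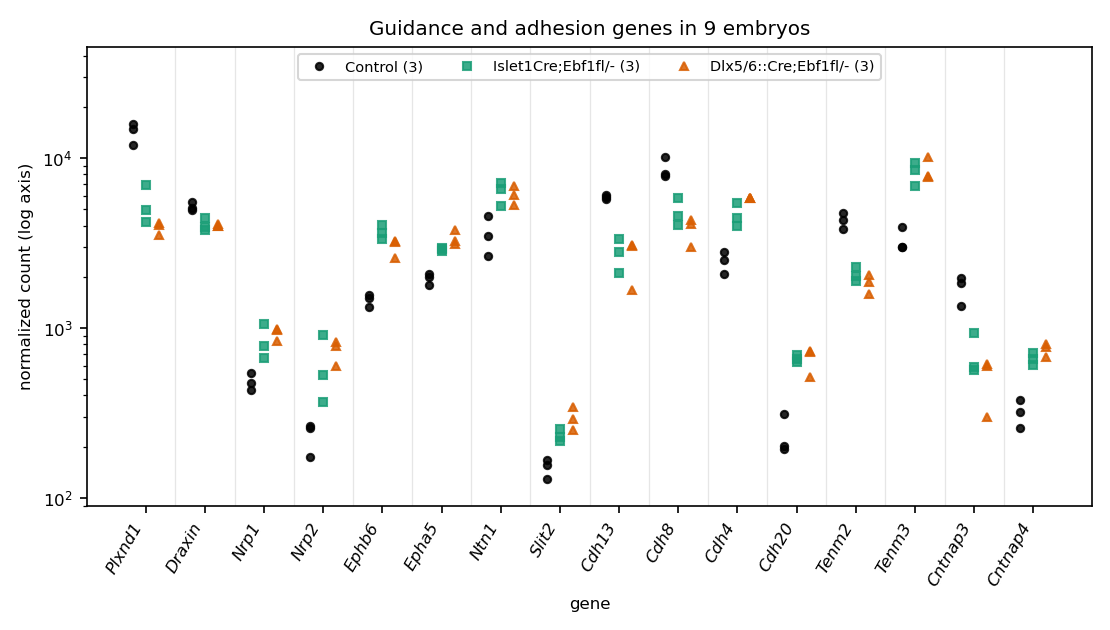
Normalized count (log axis) of 16 guidance and adhesion genes in each of the 9 embryos, with circles for controls, squares for Islet1Cre;Ebf1fl/- and triangles for Dlx5/6::Cre;Ebf1fl/-. Plxnd1, Draxin, Cdh13, Cdh8, Tenm2 and Cntnap3 are lower in all 6 mutants than in any control, and the other 10 genes are higher in all 6.

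Adhesion genes changed in opposite directions within families, 11 lower and 12 higher of 199 tested (11.6%). Classical and type II cadherins, calcium-dependent adhesion proteins that bind like to like, gave 2 lower and 3 higher of 18. Cdh8, a type II cadherin, had 7877, 8032 and 10119 in the controls and 2980.2, 4217 and 5806 in the mutants (log2 -1.02; adjusted p = 0.00577), and Cdh13, which is anchored by a lipid, 6053, 5746 and 5899 and 1674, 2921 and 3334 (log2 -1.14; adjusted p = 0.00521). Cdh4 rose from 2070.4, 2814 and 2512 to 4004, 5643 and 5850.4 (log2 1.09; adjusted p = 0.00288). Cdh7 (1.14) and Cdh20 (1.47) rose too. All 5 calls held without any single embryo, and no mutant overlapped a control in any of them. Of 68 protocadherins, Pcdh1 alone was called (0.60; adjusted p = 0.0227), and it lost the call in 3 of the 9 fits that left out 1 embryo.

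Teneurins are large transmembrane proteins that bind latrophilins across the cell contact. Tenm2 fell from 4751, 4289 and 3831 to 1579, 1961 and 2269 (log2 -1.14; 95% interval -1.36 to -0.92; adjusted p = 0.000491), whereas Tenm3 rose from 3012, 3945 and 3009 to 6797, 8156 and 10085 (log2 1.33; 95% interval 1.04 to 1.62; adjusted p = 0.000887). The mutant and control ranges were far apart in both genes. Tenm4 (-0.50; adjusted p = 0.0439) and the latrophilin Adgrl2 (-0.73; adjusted p = 0.00539) were lower, so that 4 of 11 teneurin, latrophilin and Flrt genes were called. The call of Tenm4 was lost in 8 of the 9 fits that left out 1 embryo.

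Contactin-associated genes divided in the same manner. Cntn5 fell, with a log2 fold change of -1.40 (adjusted p = 0.00849), as did Cntnap3 (-1.53; adjusted p = 0.00647), and Cntnap4 rose from 258, 377 and 320.3 to 607, 694 and 807 (log2 1.15; adjusted p = 0.00129). Among synaptic organizers Lrfn5 was lower (-1.16), and Lrfn2 (0.50) and Clstn2 (0.73) were higher, of 32 tested. Of the immunoglobulin adhesion genes Sdk1, which matches synaptic partners in the retina, had 212, 259 and 259 in the controls and 539, 885 and 997 in the mutants (log2 1.76; 95% interval 1.36 to 2.16; adjusted p = 0.00093). Igsf21 (0.64) and Alcam (0.78) were higher as well, and Nectin3 (-0.65) and Kirrel (-0.50) lower. Among 22 integrins the laminin receptor subunit Itga6 was higher (0.57) and the leukocyte subunit Itgal, at low counts, lower (-1.10). Lrfn2 and Itgal lost the call in 7 of the 9 fits that left out 1 embryo, and Alcam in 6. Nectin3, Kirrel and Itga6 lost it in 5 and Igsf21 in 3.

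Matrix genes gave 3 lower and 2 higher of 85 tested. Col25a1, a transmembrane collagen of neurons, fell from 2123, 1392 and 1987 to 271, 448 and 637 (log2 -1.98; adjusted p = 0.000952). Col6a1, a subunit of the beaded filaments of collagen VI, fell from 1713, 1131 and 1967 to 142, 319 and 773 (log2 -2.18; adjusted p = 0.00949). The proteoglycan Spock1 fell by 1.01. Col5a2 (0.81) and the basement membrane chain Col4a4 (1.12) were higher.

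Receptors for transmitters and growth factors changed in 23 cases of 355, 11 lower and 12 higher (6.48%). Of 12 tested muscarinic and nicotinic receptor genes, 1 was called lower and 1 higher. Chrm4, which couples to Gi and inhibits cAMP synthesis in dSPN, had 475, 571 and 501 in the controls and 152, 221 and 363 in the mutants (log2 -1.14; 95% interval -1.61 to -0.68; adjusted p = 0.0159), while the Gq-coupled Chrm3 rose as given above. The call of Chrm4 was lost in 3 of the 9 fits that left out 1 embryo. The A1 adenosine receptor gene Adora1 fell from 3762, 3648 and 4054 to 1682, 2329 and 2477 (log2 -0.78; adjusted p = 0.00304), the orphan receptor Gpr26 from 1561, 1398 and 1236 to 446, 651 and 838 (log2 -1.10; adjusted p = 0.00348), and the adrenergic receptor Adra2b from 271, 163 and 106 to 15.1, 34.6 and 50.1 (adjusted p = 0.00419). These were the called genes on the lists of 24 monoamine receptors and of 103 peptide, adenosine, cannabinoid and orphan receptors, which do not hold every such receptor and leave out Avpr1a, given above. Of 21 neuropeptide precursors, galanin was lower, at 70.6, 64.5 and 69.3 in the controls and 11.9, 20.4 and 26.8 in the mutants (Gal; adjusted p = 0.00341).

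Of 42 glutamate receptor genes 4 were higher and 0 lower (9.52%; median log2 0.14). Other fits called both directions, with 10 higher and 3 lower without Dlx5/6::Cre;Ebf1fl/- replicate 1 and 10 higher and 4 lower by DESeq2's Wald test. Grm7, the presynaptic metabotropic receptor, had 599, 742 and 772 in the controls and 1061, 1357 and 1656 in the mutants (log2 0.96; 95% interval 0.66 to 1.27; adjusted p = 0.00419). The kainate receptor subunit Grik4 (0.62) and the auxiliary AMPA receptor proteins Shisa9 (0.83) and Cnih3 (0.80) were the others. Their calls were lost in 2, 2 and 5 of the 9 fits that left out 1 embryo. Of 20 GABA and glycine receptor genes the GABA-A subunit Gabrg3 was higher (0.68). The call of Gabrg3 was lost in 6 of the 9 such fits.

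For growth factors and cytokines, a receptor fell in some pathways and rose in others. The BDNF receptor gene Ntrk2 fell from 6734, 6863 and 8769 to 4699.8, 5137 and 5604 (log2 -0.54; adjusted p = 0.00949), in contrast to the GDNF co-receptor gene Gfra1. Cxcr4 and Ackr3 encode the signalling and the scavenging receptor of the chemokine Cxcl12. Cxcr4 fell from 1436, 1048 and 1033 to 302, 373 and 533 (log2 -1.58; 95% interval -1.95 to -1.21; adjusted p = 0.000963). Ackr3 rose from 498, 559 and 543 to 673, 724 and 944 (log2 0.50; adjusted p = 0.0443), and lost its call in 7 of the 9 fits that left out 1 embryo. Wnt11, a ligand of non-canonical Wnt signalling, was nearly absent from the mutants, with 87.7, 68.6 and 51.9 in the controls and 4.08, 7.62 and 9.71 in the mutants (adjusted p = 0.000491). Tgfb2 fell from 687, 453 and 568 to 153, 217 and 308 (log2 -1.36; adjusted p = 0.00376), and the activin receptor Acvr2a was higher (0.69; adjusted p = 0.0423). Igfbp3 (-0.71) and Pdgfa (-0.53) were lower, and Igfbp4 (0.40) and Nrg3 (1.10) higher. Acvr2a, Pdgfa and Nrg3 each lost the call in 6 of the 9 fits that left out 1 embryo, and Igfbp4 in 3.

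Intracellular signalling genes were more often lower than higher, 17 against 7 of 375 (6.4%). Without control 2 the calls were 8 lower and 6 higher, and without Dlx5/6::Cre;Ebf1fl/- replicate 1 they were 23 lower and 16 higher. In G protein signalling Rgs4, Rgs6 and Gnb4 fell and Gnai1 rose. Rgs6, like Rgs4 a GTPase-activating protein, had 2986, 2453 and 2311 in the controls and 867, 1104 and 1625 in the mutants (log2 -1.20; 95% interval -1.55 to -0.85; adjusted p = 0.00308). Gnb4 changed by -0.46 and Gnai1 by 0.73, and both lost their calls in most fits that left out 1 embryo (6 and 7 of 9). In the cAMP pathway the kinase A anchor Akap12 (-0.68) and the phosphodiesterases Pde7b (-0.72) and Pde10a (-0.57), the last a marker of SPN, were lower, against the higher Adcy8. Pde7b and Pde10a lost their calls in 6 and 7 of the 9 fits that left out 1 embryo. In the MAP kinase cascade the kinase Map2k1, also named MEK1, fell from 2736, 2413 and 1920.1 to 1119, 1202 and 1349 (log2 -0.94; 95% interval -1.17 to -0.72; adjusted p = 0.00105). Map3k4 (-0.45), Rasl11b (-0.87) and Rasal1 (-0.87) were lower too, with none of 92 genes of the Ras, Raf, Mek and Erk list higher by edgeR and 1 by DESeq2. Rasl11b and Rasal1 lost their calls in 6 and 7 of the 9 fits that left out 1 embryo.

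The protein kinase C genes Prkcd and Prkch fell. Prkcd had 1691, 1472 and 1405 in the controls and 625, 717 and 858 in the mutants (log2 -1.05; 95% interval -1.30 to -0.81; adjusted p = 0.000952), and Prkch changed by -0.76 (adjusted p = 0.0158). Dgkb, a diacylglycerol kinase (1.19), and the phospholipase gene Plch1 (1.22) were higher. The guanine nucleotide exchange factor genes Arhgef28 (-1.12) and Arhgef3 (-0.86) and the GTPase gene Rnd1 (-0.54) were lower, and the exchange factor gene Dock10 was higher (0.74). Receptor-type tyrosine phosphatases again went both ways, with Ptpru lower (-0.68) and Ptprk (1.15) and Ptprg (0.90) higher. Plch1 and Arhgef3 lost their calls in 7 of the 9 fits that left out 1 embryo, and Rnd1 in 4. Prkch, Dock10 and Ptpru lost theirs in 2, and Dgkb in 1.

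Channel and transporter genes were called at 3.54%, 9 lower and 7 higher of 452. Scn10a, a sodium channel gene known from sensory neurons, had 112, 109 and 38.5 in the controls and at most 8.95 in the mutants, 3 of which were at 0 (adjusted p = 0.00209). The potassium channel gene Kcna6 (-0.86), the ATP-gated P2rx2 (-0.68) and the cation transporter gene Slc22a3 (-0.68) were lower. The ryanodine receptor genes Ryr2 and Ryr3, which release calcium from internal stores, were both higher (0.96 and 0.67), as were the T-type calcium channel Cacna1g (0.54), Kcnip1 (0.67), Kcnh7 (0.80) and the chloride extruder Slc12a5 (0.49). Scn10a, Ryr2 and Kcna6 kept their calls without any single embryo. The call was lost in 7 of the 9 such fits for Ryr3, P2rx2 and Slc22a3, in 8 for Slc12a5, in 5 for Kcnip1 and Kcnh7 and in 2 for Cacna1g. The exons of Kcna6 share 39.6% of their bases with the opposite-strand Gm26673.

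Among cytoskeletal genes (3.09% of 194) the neurofilament chains Nefl and Nefm fell. Nefm had 1054, 857 and 1235 in the controls and 333, 423 and 612 in the mutants (log2 -1.21; adjusted p = 0.00611), and these genes overlap on opposite strands of chromosome 14 and share exon bases, as given above. The collapsin response protein Dpysl4 was slightly lower (-0.32), and the dynein chain Dync1i1 (1.14), the myosins Myh10 (0.37) and Myo3b (0.78) higher. Dpysl4 and Myo3b lost the call in 7 of the 9 fits that left out 1 embryo, Myh10 in 6 and Dync1i1 in 2. None of 15 tubulins or 53 actin and actin-binding genes was called. At the synapse, 2 of 16 synaptotagmin genes were lower and 1 was higher. Syt4 (-1.73) and Syt7 (-0.37) fell. Syt2, a fast calcium sensor of vesicle release, rose from 64.2, 55.5 and 59.6 to 111, 127 and 148 (log2 1.10, adjusted p = 0.00489). Syt7 lost its call in 5 of the 9 fits that left out 1 embryo, and Syt4 in 1. Rph3a, a Rab3 effector on vesicles, fell from 12509.5, 10032 and 12514 to 2864, 3869.6 and 5962 (log2 -1.54; 95% interval -1.93 to -1.15; adjusted p = 0.00117). Sv2c (0.79), Stxbp2 (0.58) and Stx11 (1.63) were higher. Stxbp2 and Stx11 lost the call in 5 of the 9 fits that left out 1 embryo, and Sv2c in 2. Of 37 postsynaptic scaffold genes 0 were called, with log2 fold changes from -0.59 to 0.84.

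Of 12 genes that mark dSPN 6 fell (50%; median log2 -0.78), namely Zfp521, Plxnd1, Sox8, Chrm4, Mef2c and Slc35d3 (-0.76). The list was written with earlier results of these data known, so the count is not independent evidence. Drd1, the dopamine receptor of dSPN, was not called (832, 1622 and 1829.6 against 1728, 2235 and 2438; log2 0.60; adjusted p = 0.183), nor were Isl1 (-0.19) and the substance P precursor Tac1 (-0.80). DESeq2's Wald test called 6 lower and 2 higher, the latter being Drd1 and Eya1. The 12 genes summed to 44957 to 47285 normalized counts in the controls and 19313 to 32380 in the mutants. Of 11 progenitor genes of the lateral ganglionic eminence, the source of SPN, edgeR called 0 (median log2 0.53), but their sum was 10131 to 12741 in the controls, 13405 to 15976 in 5 mutants and 29051 in Dlx5/6::Cre;Ebf1fl/- replicate 1, so that every mutant was above every control. The part of progenitor RNA in the dSPN values was not tested. Of 7 iSPN genes 0 were called, with log2 values from 0.11 to 1.32, and Drd2 was at 1584, 1696 and 2187 and 1606, 2009 and 2320.5. Of 16 generic SPN genes Ikzf1 and Pde10a were lower and Meis2 higher; their summed level overlapped between the groups. Foxp1 lay just outside the threshold, with every mutant below every control (17975, 19407 and 21499 against 11495, 15453 and 15725; log2 -0.43; adjusted p = 0.051). Of 15 retinoic acid genes the retinoic acid binding protein gene Crabp1 fell, from 6726, 8949.6 and 5679 to 2319.6, 3724 and 4276 (log2 -1.06; adjusted p = 0.0105). In bulk RNA, fewer cells of a type and less RNA per cell cannot be told apart.

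**Figure D5:**
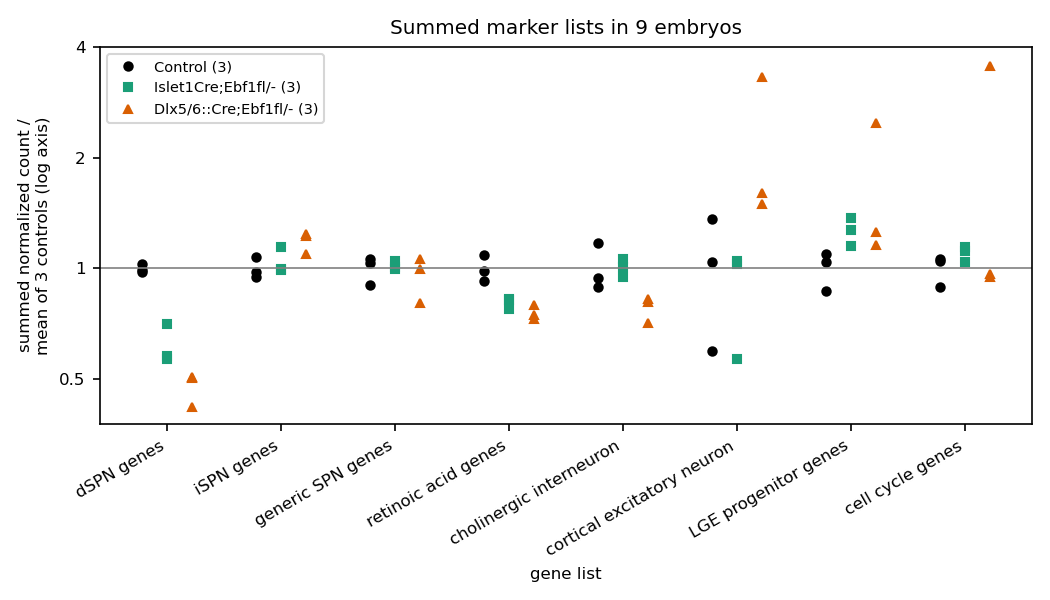
Summed normalized counts of 8 gene lists in each embryo divided by the mean of the 3 controls (log axis), with circles for controls, squares for Islet1Cre;Ebf1fl/- and triangles for Dlx5/6::Cre;Ebf1fl/-. The dSPN and retinoic acid sums are lower in all 6 mutants than in any control, the generic SPN sums overlap, and the cell cycle sum stands out in 1 Dlx5/6::Cre;Ebf1fl/- embryo.

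Other classes held few or no calls. None of 76 markers of other cell types, among them microglia, endothelium, oligodendrocytes, astrocytes, cholinergic and cortical neurons, was called, nor any of 27 cell cycle genes, whose median log2 fold change was 0.64 and whose sum was high in Dlx5/6::Cre;Ebf1fl/- replicate 1, as given above. The cortical markers had a median log2 of 0.55, and summed to 1303 to 2986 in the controls. Their sum was 1242 to 2302 in the Islet1Cre;Ebf1fl/- mutants. In the Dlx5/6::Cre;Ebf1fl/- mutants it was 3288 to 7268, above every control. Of 297 housekeeping genes 1 was called, Hsph1, which encodes a heat shock protein (0.29, adjusted p = 0.0359). The call of Hsph1 was lost in 7 of the 9 fits that left out 1 embryo. The medians were -0.11 for 79 cytosolic ribosomal protein genes, -0.01 for 74 respiratory chain genes and 0.01 for 41 proteasome genes.

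The lower and higher genes differed in level and in size. The median control level of the lower genes was 7.10 normalized counts per kilobase of exon and M reads, against 2.98 for the higher genes and 4.88 for all tested genes. Among protein-coding genes, 32.6% of the lower and 52.9% of the higher genes spanned at least 100 kb from start to end, against 16% of 14256 tested. The median spans were 52.1 kb, 108 kb and 25.9 kb. The 5 called genes with the highest mean counts were Nnat, Meis2, Lmo4, Palm and Gpm6b. Nnat, an imprinted gene for a small membrane protein of the endoplasmic reticulum, had 80061, 86014 and 83826 in the controls and 95602, 115681 and 123035 in the mutants (log2 0.42; adjusted p = 0.0389). Palm (-0.36) and Gpm6b (-0.39), which encode membrane proteins of neuronal processes, were lower. The call of Nnat was lost in 6 of the 9 fits that left out 1 embryo, and those of Palm and Gpm6b in 3. Called genes lay on all autosomes and X, at 1.78% to 4.09% of the tested genes of a chromosome. Within 10 Mb of Ebf1 on chromosome 11, 2 of 129 tested genes were called (1.55%), Tenm2 and Ccnjl (-0.97).

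Long non-coding genes were called about as often as coding ones, 28 of 1176 (2.38%) against 365 of 14256 protein-coding genes (2.56%). Pseudogenes were called less often, at 0.679% of 442, as were the other annotated classes, at 0.256% of 390. Besides Gm14133, 6530403H02Rik was lower (log2 -1.68; adjusted p = 0.0181). A230077H06Rik (0.80), Gm2824 (1.09) and Gm43445 (1.45) were higher. The largest value of all belonged to the pseudogene Rpsa-ps10 (log2 -8.08; adjusted p = 0.0034), with 6133, 5623 and 16.4 in the controls and a lowest and median value of 9.71 and 14.9 in the mutants. Control 3 lay within the range of the mutants, so the groups overlapped, and counts of this pseudogene are uncertain because it is close in sequence to Rpsa.

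The promoters of the called genes were searched for the palindrome known to be bound by Ebf proteins. RefSeq promoter windows (GRCm38.p6, 250 bases before to 50 after the start) were matched by symbol for 148 of the 213 lower and 137 of the 186 higher genes, and the motif reads the same on both strands. The 8-letter core CCCNNGGG occurred in 18.4% of 206 windows of lower genes, 21.1% of 175 windows of higher genes and 18.4% of 14910 windows of all tested genes. The longer form, with T before and A after the core, occurred in 0.971%, 3.43% and 1.07% of the windows, that is in 2 lower and 6 higher genes. These sites are shown because they are the only called genes with the full form in the window, together with Gm2824, whose match lies at the window's edge; the capitals mark the full palindrome, and each site is written on the strand of its gene.
Acp6, chr3:97158657-97158686, plus strand: ggaactgcccTCCCTGGGGAcctcggccgc
Grm7, chr6:110645308-110645337, plus strand: atccacagatTCCCTGGGGAccacgaaact
Sh3rf3, chr10:58813200-58813229, plus strand: cgccccggtcTCCCTGGGGAcctggccggc
Mast4, chr13:103334610-103334639, minus strand: cacccagagcTCCCGCGGGAtcgggtggcc
Tmem237, chr1:59119878-59119907, minus strand: ccccaataccTCCCGTGGGAcgggtgggga
Rgl1, chr1:152766505-152766534, minus strand: cgcccccgcgTCCCCCGGGAgcgcgcgtcg
Il2rg, chrX:101268335-101268364, minus strand: aacccaaatcTCCCTGGGGActtagcttat
The genes of these windows, which were named for the match, had log2 fold changes of 0.96 for Grm7, 0.98 for the acid phosphatase gene Acp6, 0.63 for the ubiquitin ligase gene Sh3rf3, 0.54 for the kinase gene Mast4, 0.43 for the cilium gene Tmem237, -1.08 for the cytokine receptor subunit Il2rg and -0.43 for the Ral regulator Rgl1. The palindromes begin at positions from -219 to -91 relative to the annotated starts. A match is a description of these letters and shows no binding.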

How the data were processed

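Striatal RNA of 9 mouse embryos was compared, 6 labelled with an Ebf1 mutant genotype against 3 labelled Control, with groups and replicate numbers taken from the sample labels. The authors deposited counts, whole reads per Ensembl gene, without normalization. They selected polyadenylated RNA from 400 ng of total RNA with a strand-specific kit, filtered reads by length and quality, aligned them with STAR 2.4.0k, dropped alignments that matched several positions and counted with HTSeq 0.5.3 on Ensembl annotation, before their own tests with DESeq 1.8.3. A gene with near-identical copies therefore has too low a count. Each file lists 44886 genes.

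These counts were fitted in R 4.3.3 with edgeR 4.0.16, as 2 groups over the 9 samples, after filterByExpr with a minimum count of 10 and TMM scaling, with the quasi-likelihood test and Benjamini-Hochberg adjustment over all genes. Each 95% interval was derived from the F statistic and the total degrees of freedom, which add edgeR's prior to the residual ones. Normalized counts are counts over DESeq2 1.42.0 size factors. Names and positions were those of GENCODE M21 on GRCm38, in which 44133 identifiers were found. The fit was tested on simulated data. Single values were compared by an exact permutation test. Depth was 16.5 to 41.5 M counts, so low genes are least precise in the shallowest library. No 2 libraries of a genotype agreed within sampling noise (chi-square per degree of freedom at least 10.8). Nothing says more of the embryos than that each was dissected separately, and litters are not given.

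The named genes were Ebf1, the 15 lower and 15 higher called genes with the largest change among those without overlap and with a mean normalized count of at least 100, up to 4 called genes of each list with the smallest p (or the 2 with the highest mean count), 3 lower and 3 higher non-coding genes with a mean of at least 50, the 5 called genes with the highest counts, and the extreme members of lists without calls. A few genes that met the rule are not reported here. Meis1, Epha8, Kirrel, Ackr3, Ccnjl, the genes with a promoter match and those under Other observations were named after their values were seen. The comparison and the gene lists were chosen with earlier results of these data known. Alternatives were DESeq2's Wald test and size factors, other filters, 3 genotype groups, a replicate block, a covariate for the embryo code letters, fits without each embryo and without genes near Ebf1. The replicate numbers did not pair the samples.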

Additional observations from a re-analysis of the deposited data

Results flagged for a closer look

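Among the 6 mutants, 10 of 173 named genes had 1 embryo far from the others, its gap to the nearest of them, as a share of the whole range, being above Dixon's 95% critical value for 6 samples. Chance gives this in about 1 of 20 groups, and 5.78% of the named genes showed it. In 6 of the 10 the embryo was Islet1Cre;Ebf1fl/- replicate 3, which lay nearest to the controls: Col6a1 was at 773 there against at most 358 in the other mutants, Egfem1 at 145 against 74.8, Akap12 at 1209.9 against 985, Syt4 at 4532 against 2218, Atp6ap1l at 107 against 39.4 and H2-DMb2 at 26.8 against 9.51. In the other 4 it was Dlx5/6::Cre;Ebf1fl/- replicate 1. Ackr3 was at 944 in this embryo against at most 759 elsewhere, and the lowest values were those of Grik4, at 861 against at least 1086 elsewhere, Myo3b, at 914 against 1359, and Slc12a5, at 3458 against 4641. The part of depth or of the other properties of these 2 libraries in these values was not tested.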

How the results depend on the processing

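Of 399 called genes, 134 (78 lower, 56 higher) were called whichever embryo was left out and 92 under every alternative. The count was 782 by DESeq2's Wald test (381 lower, 401 higher), 399 with its size factors in edgeR, 471 without the filter, 342 with at least 1 CPM in all samples, 452 with 3 genotype groups, 335 with the embryo code letters as a covariate (183 lower, 152 higher) and 169 in the IE embryos alone (88 lower, 81 higher). Leaving out 1 embryo gave 172 to 696 calls, 105 to 339 lower and 66 to 357 higher, with 172, 246 and 186 without controls 1, 2 and 3, 237 without Dlx5/6::Cre;Ebf1fl/- replicate 3 and the most without Dlx5/6::Cre;Ebf1fl/- replicate 1. Without control 2 and Islet1Cre;Ebf1fl/- replicate 3 together, the libraries with the highest Y-linked counts and an alternative chosen after seeing the data, 265 genes were called, 152 lower and 113 higher. Without genes within 10 Mb of Ebf1 there were 397. The cause of these differences was not tested, beyond the smaller number of samples in the fits that left some out. With a replicate block 342 genes were called (173 lower, 169 higher). Same-numbered embryos deviated together with correlations from -0.28 to 0.25, so the numbers were not taken as pairs. Of 167 named genes that were called, 77 kept the call without each embryo in turn, and none changed direction under the alternatives run. With 3 controls, counts near the filter are the least certain; depth limits low genes such as Klf14, Calcr and H2-DMb1 most in Islet1Cre;Ebf1fl/- replicate 3.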

Other observations

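Gene groups outside the lists above were collected after the values had been seen, so their counts are descriptions only. For 8 of 27 tested imprinted genes, which are expressed from 1 parental allele in some tissues, every mutant was above every control, against 3.63% of all genes. Of the 27 genes 4 were called and all were higher in the mutants, against 1.14% of all genes called higher. They were Nnat, Peg3 (2349, 2688 and 2782 in the controls and 3455, 3678 and 4229.7 as the lowest, median and highest mutant; log2 0.52; edgeR adjusted p = 0.0055), Zdbf2 (1090.0, 1367 and 1456 and 2081, 2376 and 2910.1; log2 0.90; adjusted p = 0.0034) and the calcitonin receptor gene Calcr, which was close to undetected in the controls (0.905, 8.98 and 2.89 and 11.9, 82.6 and 107; adjusted p = 0.0149). The median log2 fold change of the 27 genes was 0.34, against 0.01 for all genes. Calcr was lowest in Dlx5/6::Cre;Ebf1fl/- replicate 1. The related receptor gene Calcrl fell, from 279, 283 and 192 in the controls to 75.2 to 121 in the mutants (log2 -1.39; edgeR adjusted p = 0.0034), and the 3 Ramp genes of accessory proteins were not called.

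The lists that follow were also collected after the values had been seen. Over all tested genes 1.3% were called lower and 1.14% higher. Of 13 tested genes known from lymphocytes and antigen presentation, 6 fell and 1, Fcrla, rose. Cd2 was at 122, 120.0 and 101 in the controls and 17.1, 28.4 and 50.1 in the mutants (log2 -1.92; edgeR adjusted p = 0.00374), H2-DMb2 at 123, 167 and 87.5 and 0, 7.54 and 26.8 (adjusted p = 0.00478) and Il2rg at 148, 105 and 120.2 and 47.3, 56.1 and 72.8 (adjusted p = 0.0121). H2-DMb1, Itgal and Ikzf1 were the others. H2-DMb1 and Itgal lost their calls in 6 and 7 of the 9 fits that left out 1 embryo, and Il2rg in 2. H2-DMb1 and H2-DMb2 are close copies, so reads may be divided between them, and 30.5% of the exon bases of Il2rg are shared with Gm20489. None of the microglia and macrophage markers was called. Of 23 genes of cholesterol and isoprenoid synthesis and its regulation 3 were lower and 0 higher. They were the regulator gene Insig2 (-0.72) and the enzyme genes Mvd (-0.34) and Fdps (-0.33), and 26.7% of the exon bases of Fdps are shared with Gm43738. The log2 values of all 23 lay between -0.72 and -0.03. Mvd and Fdps lost their calls in 6 of the 9 fits that left out 1 embryo. In the sortilin and Lypd6 families Sorcs3, Sorcs1 (0.90), Lypd6b and Lypd6 (1.07) were higher, 4 of 8 genes tested. Among genes of retinoid storage and uptake, Lrat, which esterifies retinol, rose from 3.62, 12.2 and 11.5 to 42.8, 58.6 and 81.5 (adjusted p = 0.0034) and Stra6l fell from 474, 509 and 575 to 133, 172 and 317 (adjusted p = 0.00996).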
